A study of Mus musculus with 6 samples.

Results

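Serine is built from the glycolytic intermediate 3-phosphoglycerate by 3 cytosolic enzymes acting in a row, and its side-chain carbon is then passed to tetrahydrofolate as a one-carbon unit. Folate enzymes exist as parallel sets in the cytosol and in mitochondria. In proliferating and many other mammalian cells the mitochondrial set usually runs from serine to formate, which leaves the mitochondrion and supplies purine, thymidylate and methionine synthesis in the cytosol. In brain, serine made by these enzymes, largely in astrocytes, is also the source of D-serine, a co-agonist of NMDA receptors. The transcription factor ATF4, an effector of the integrated stress response, is known to activate several of the genes for serine synthesis and mitochondrial folate enzymes.

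The 10 genes described here encode 5 cytosolic enzymes (Phgdh, Psat1, Psph, Shmt1 and Mthfd1) and 5 mitochondrial ones (Shmt2, Mthfd2, Mthfd1l, Aldh1l2 and Pck2). They were taken by name from a table of 20040 gene entries. All 10 were listed, and all 10 passed the filter on low values (mean over all libraries of 0.5 TPM or more), as did 14983 entries in all. The genes were selected on their measured TPM in KO and WT neurons, with that difference already known. Their differences, and any threshold they pass, are therefore given as a description, not as a test.

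The libraries hold mRNA of neurons cultured from cortex of C57BL/6 mouse embryos at embryonic day 18. KDM6B KO neurons gave 3 libraries and wild-type (WT) neurons gave 3. Kdm6b encodes an enzyme that demethylates histone H3 at lysine 27, and the labels do not say how or in which cells it was deleted, nor name any other allele or treatment. Nor do they state whether replicates are independent cultures, so any p-value given here reflects library-to-library spread, possibly technical in origin.

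Kdm6b had 11.4 ± 0.536 TPM in KO and 30.6 ± 0.279 TPM in WT (mean ± SD, n = 3 each), in the direction the labels give. TPM is a share of transcripts, corrected for gene length, that sums to 1000000 per library, so levels can be compared between genes. The smallest whole counts that give the deposited values add up to between 19761740 and 23503684 per KO library and between 20728314 and 22679053 per WT library. The Y-linked gene Ddx3y had 0.0652 to 0.191 TPM in KO and 25.9 to 26.3 TPM in WT, and Xist, the RNA of the inactive X chromosome, had 224.3 to 240.7 TPM in KO and 70.8 to 77.7 TPM in WT. The sex mix of the cultures and the genotype therefore cannot be told apart in any comparison given here. WT replicate 3 had 6990 TPM of the ribosomal RNA precursor Rn45s, against 3750 to 4821 TPM in the other 5 libraries.

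The 3 enzymes of serine synthesis were the most abundant of the 10 in KO neurons, with Psat1 first, then Phgdh, then Psph, and they held the same ranks in WT neurons. Psat1 and Phgdh were clear of their neighbours in both groups. Psph overlapped with the gene ranked next, which was Shmt2 in KO (47.0 and 43.2 TPM) and Mthfd1 in WT (38.5 and 37.9 TPM). Shmt1 was the lowest in both groups, at 3.86 ± 0.582 TPM in KO and 3.49 ± 0.0895 TPM in WT. Summed over the 10 genes, the level was 570.3 ± 5.61 TPM in KO and 467.5 ± 15.2 TPM in WT (SD, n = 3 each), a ratio of 1.22.

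Phgdh encodes the dehydrogenase that commits 3-phosphoglycerate to serine. It lies on chromosome 3 from 98313170 to 98339990, minus strand (GENCODE M21, GRCm38, as for all loci here). It had 142.7, 143.8 and 150.4 TPM in KO replicates 1, 2 and 3, against 119.4, 113.3 and 109.5 TPM in WT replicates 1, 2 and 3. Each KO library lay above each WT library, with 23.3 TPM between the nearest ones. The ratio of means was 1.28 and the log2 fold change 0.35 ± 0.04 (SE; KO minus WT on the log2 of TPM plus 0.5, limma). A processed pseudogene, Phgdh-ps1, is annotated on another chromosome, and whether the counting kept its reads apart is not given in the sources used here.

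Psat1, the aminotransferase of the following step (chromosome 19, 15904678 to 15947337, minus strand), had 220.5, 215.3 and 217.9 TPM in the KO libraries and 193.5, 181.4 and 184.6 TPM in the WT libraries. The groups did not overlap, and the coefficient of variation was 1.18% in KO and 3.37% in WT. Its ratio of 1.17 was the smallest among the genes whose groups stood apart, with a log2 fold change of 0.22 ± 0.03 (SE). Psph, the phosphatase that releases serine (chromosome 5, 129765558 to 129787449, minus strand), had 43.6, 48.3 and 49.1 TPM in KO against 36.0, 41.6 and 37.7 TPM in WT. Here the lowest KO library exceeded the highest WT library by 2.02 TPM, less than the SD within either group (2.95 in KO and 2.86 in WT). The ratio was 1.22 and the log2 fold change 0.29 ± 0.06 (SE). Exons of Psph overlap those of the more abundant Cct6a, a chaperonin subunit gene on the opposite strand, by 452 nt, and Cct6a had 377.6 ± 11.7 TPM in KO and 369.9 ± 4.87 TPM in WT.

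**Figure D1:**
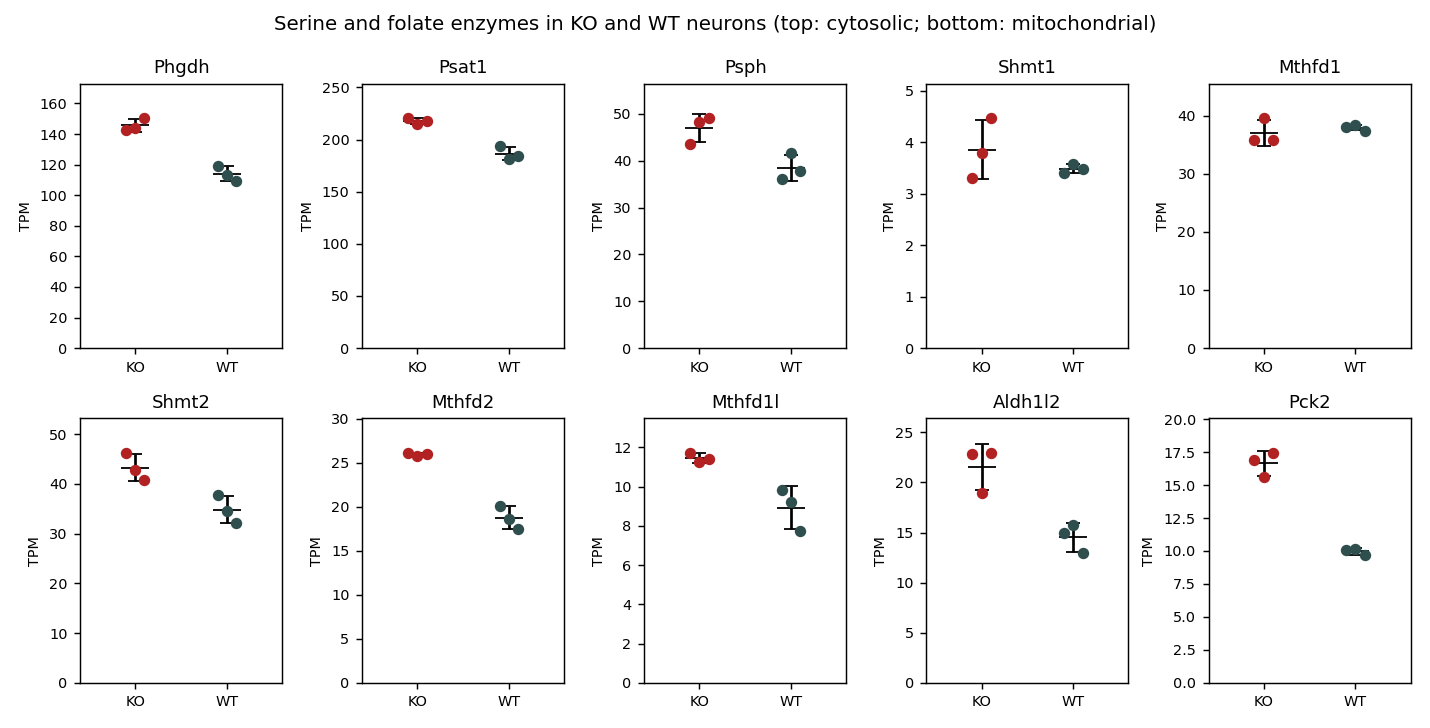
Level of each gene in TPM (vertical axes, each starting at 0) in the 3 KO and the 3 WT libraries; points are libraries, horizontal bars the group mean and error bars 1 SD (n = 3). KO points lie above all WT points for 8 genes, while the groups overlap for Shmt1 and Mthfd1.

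For both cytosolic folate enzymes the KO and WT libraries overlapped. Shmt1, the cytosolic hydroxymethyltransferase that splits serine into glycine and a one-carbon unit (chromosome 11, 60788104 to 60811718, minus strand), had 3.31, 3.80 and 4.47 TPM in KO and 3.40, 3.57 and 3.49 TPM in WT. The KO libraries reached both below and above the WT range, and they rested on 49 to 62 counts each, against 50 to 54 in WT. Its log2 fold change of 0.12 ± 0.12 (SE) was as large as its error. That is too imprecise to tell it from 0 or from the 0.22 of Psat1. Shmt1 exons share 184 nt with Smcr8 on the opposite strand, which had 20.6 ± 0.585 TPM in KO and 21.1 ± 0.302 TPM in WT. Smcr8 had 1133 to 1282 counts per KO library and 1159 to 1277 per WT library. The part of Smcr8 reads in the Shmt1 values was not tested. Mthfd1, the trifunctional cytosolic enzyme that turns formate into folate-bound one-carbon units (chromosome 12, 76255298 to 76319803, plus strand), had 35.8, 39.6 and 35.8 TPM in KO and 38.1, 38.4 and 37.4 TPM in WT. KO replicates 1 and 3 lay below all WT libraries and KO replicate 2 above them. The log2 fold change was -0.04 ± 0.05 (SE), on 786 to 1040 counts in KO and 881 to 933 counts in WT.

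All 5 mitochondrial enzymes were higher in every KO library than in any WT library. Shmt2, the mitochondrial hydroxymethyltransferase (chromosome 10, 127517123 to 127522444, minus strand), had 46.2, 42.7 and 40.8 TPM in KO and 37.7, 34.5 and 32.2 TPM in WT. With 3.1 TPM between the nearest libraries the gap was close to the SD within the groups, 2.74 in KO and 2.77 in WT. The ratio was 1.24 and the log2 fold change 0.31 ± 0.07 (SE). Mthfd2, the mitochondrial dehydrogenase and cyclohydrolase acting on that one-carbon unit (chromosome 6, 83305691 to 83325908, minus strand), had 26.1, 25.8 and 26.0 TPM in KO against 20.1, 18.6 and 17.5 TPM in WT. The KO libraries agreed closely, with a coefficient of variation of 0.696% in KO and 6.99% in WT. Mthfd2 had a ratio of 1.39 and a log2 fold change of 0.46 ± 0.06 (SE).

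Mthfd1l, the mitochondrial synthetase that releases formate (chromosome 10, 3973118 to 4167081, plus strand), had 11.7, 11.2 and 11.4 TPM in KO and 9.84, 9.22 and 7.72 TPM in WT. The spread was wider in WT, where the coefficient of variation was 12.2%, against 2.11% in KO. Its ratio was 1.28 and its log2 fold change 0.35 ± 0.09 (SE). Aldh1l2, which oxidises the formyl group of mitochondrial folate to carbon dioxide (chromosome 10, 83487450 to 83534140, minus strand), had 22.8, 18.9 and 23.0 TPM in KO and 15.0, 15.7 and 12.9 TPM in WT. KO replicate 2 stood below the other KO libraries, yet above all WT libraries. The ratio was 1.48 and the log2 fold change 0.55 ± 0.10 (SE). Exons of Aldh1l2 share 1056 nt with D10Wsu102e on the opposite strand, which had 31.2 ± 1.67 TPM in KO and 35.3 ± 2.11 TPM in WT (limma adjusted p = 0.097).

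Pck2 encodes the mitochondrial phosphoenolpyruvate carboxykinase, which feeds carbon from oxaloacetate towards phosphoenolpyruvate, a step from which 3-phosphoglycerate can be remade. It lies on chromosome 14 from 55540266 to 55551242, plus strand. Its values were 16.9, 15.6 and 17.4 TPM in KO and 10.1, 10.2 and 9.68 TPM in WT, on 392 to 419 counts per KO library and 239 to 247 per WT library. The gap of 5.41 TPM between the nearest libraries was several times the SD within KO (0.954) and within WT (0.266). Pck2 had the largest ratio of the 10 genes, 1.67, with a log2 fold change of 0.71 ± 0.06 (SE).

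**Figure D2:**
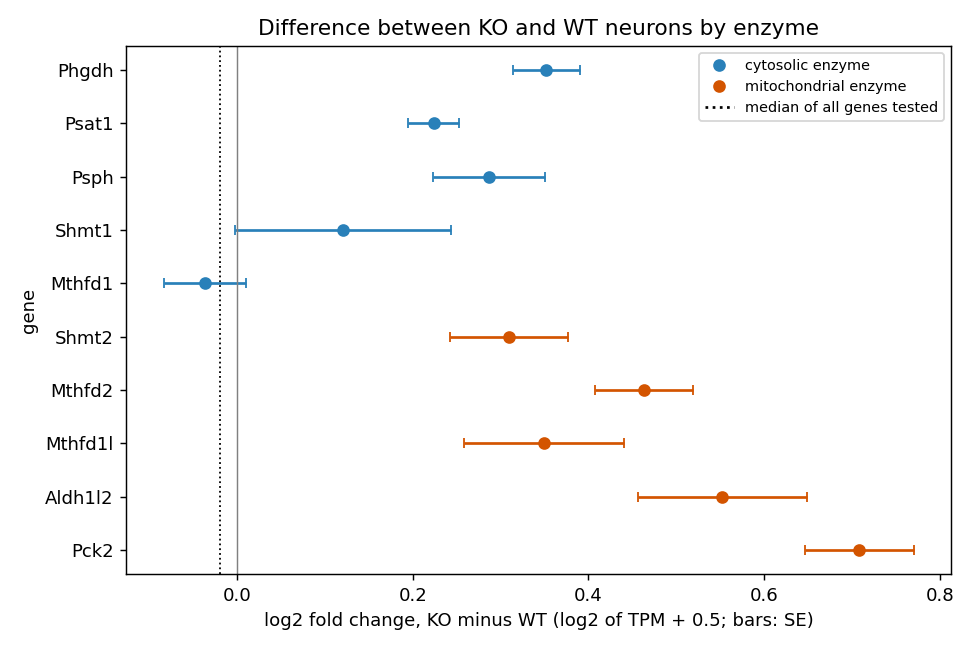
Log2 fold change of each enzyme gene, KO minus WT, on the log2 of TPM plus 0.5 (horizontal axis; bars are 1 SE of the limma fit), with cytosolic and mitochondrial enzymes in different colours and the median of all tested genes dotted. Pck2 and Aldh1l2 lie farthest right at 0.71 and 0.55, and Mthfd1 lies at -0.04.

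The median log2 fold change was 0.46 over the 5 mitochondrial genes and 0.22 over the 5 cytosolic genes, beside -0.02 over all 14983 genes tested. Of the 10 genes, 8 were past the threshold of the fit across all genes (limma, Benjamini-Hochberg adjusted p below 0.05), all of them higher in KO, beside 4.15% of all tested genes called higher. Likewise 8 of 10 had all KO libraries above all WT libraries, beside 12.5% of all tested genes, or 31.7% when groups standing apart in either direction are counted. Over all genes, 38.1% of the calls were higher in KO, a share that was 53.1% after median centring and 49.2% after quantile normalization. Because the genes were chosen with this contrast known, nothing is read from these counts. Mthfd1l stayed past the threshold without WT replicate 1 and in none of the other 5 fits that left out 1 library; its log2 fold change lay between 0.25 and 0.42 over the 6 fits. Psph stayed past it without KO replicate 1 or WT replicate 2 only (log2 fold change 0.24 to 0.34 over the 6 fits), and Shmt2 without KO replicate 3 or WT replicate 1 only (0.26 to 0.37). The other 5 genes past the threshold were past it in all 6 fits. These fits reuse the values on which the genes were selected. They describe how far a call hangs on 1 library and add no support.

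The order of the replicates within a group differed between genes. WT replicate 3 was the lowest WT library for 7 of the 10 genes and the highest for none. KO replicate 2 was the lowest KO library for 5 genes, and KO replicate 3 the highest for 5. WT replicate 3 was also the library with the most Rn45s, and the part of that difference in these values was not tested.

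Ratios taken within a library set the mitochondrial enzymes against their cytosolic partners without reference to library scaling. The summed level of Shmt2, Mthfd2, Mthfd1l and Aldh1l2 was 2.734, 2.275 and 2.515 times that of Shmt1 and Mthfd1 in KO, and 1.994, 1.861 and 1.721 times in WT. Most of the cytosolic sum was Mthfd1, at 37.0 TPM in KO and 37.9 TPM in WT, against 3.86 and 3.49 TPM for Shmt1. The summed ratio therefore says little about Shmt1. The Mthfd2 to Mthfd1 ratio was 0.703 ± 0.0447 in KO and 0.494 ± 0.0313 in WT, and the Mthfd1l to Mthfd1 ratio was 0.310 ± 0.0231 in KO and 0.235 ± 0.0265 in WT (SD, n = 3 each). KO libraries lay above WT libraries for both. The Shmt2 to Shmt1 ratio, by contrast, ran from 9.14 to 14.0 in KO and from 9.24 to 11.1 in WT, so that the groups overlapped. The few Shmt1 counts limit its precision, and reads of the overlapping Smcr8 may be among them. Within serine synthesis the Psat1 to Phgdh ratio was 1.497 ± 0.0480 in KO and 1.636 ± 0.0444 in WT, without overlap, since Phgdh differed more than Psat1.

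**Figure D3:**
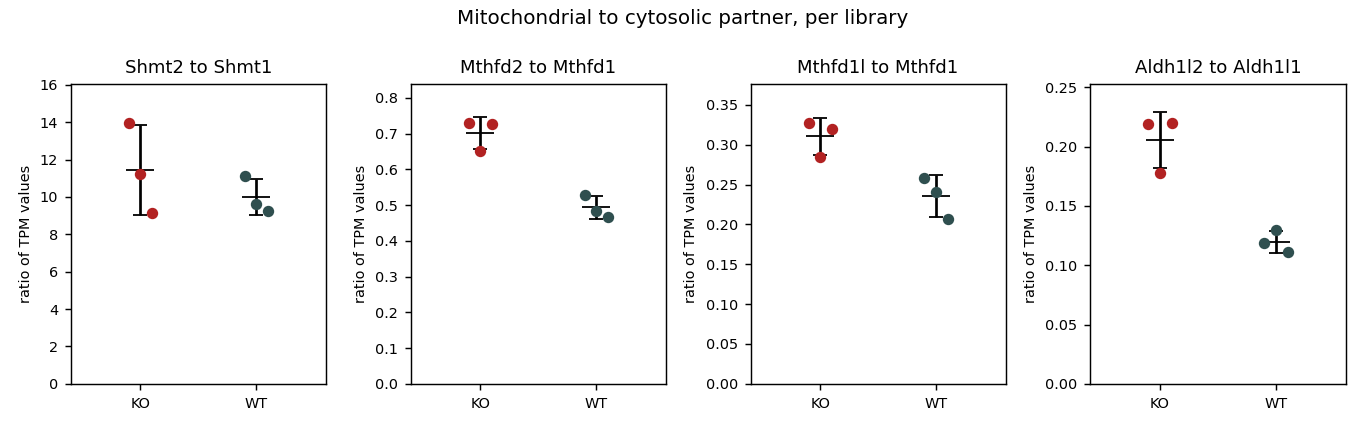
Ratio of the TPM of a mitochondrial enzyme to that of its cytosolic partner (vertical axes, starting at 0) in each library; points are libraries, bars the mean and 1 SD (n = 3). Aldh1l2 to Aldh1l1 has the largest KO to WT quotient of the 4 ratios, 1.715, with 0.178 to 0.220 in KO and 0.111 to 0.130 in WT, while Shmt2 to Shmt1 overlaps.

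RefSeq promoter windows (GRCm38.p6, 250 bases before to 50 after the annotated start) were found for 9 of the 10 genes, and Psat1 had a pair of them. They were searched on both strands for TGATGNAA, a form of the C/EBP-ATF composite element that ATF4 binds, for the CCAAT box and for the E-box CACGTG, which do not overlap each other in these windows. TGATGNAA was found in 1 of the 10 windows, that of Pck2, beside 3.97% of 32851 windows genome-wide, with its bases from 103 to 96 before the start (-103 to -96) on the strand opposite to the gene. CCAAT was found in 7 of the 10 windows, beside 37.4% of all windows, and CACGTG in none, beside 7.15%. Among 13762 windows of tested genes the shares were 2.21% for TGATGNAA, 37.7% for CCAAT and 9.59% for CACGTG. The 7 windows with CCAAT included those of Shmt1 and Mthfd1, and those of Shmt2 and Mthfd1l had none. A match of letters is not a bound site. The 5 windows below are given as 4 genes with higher levels in KO and, last, Mthfd1 as a gene without a difference; capitals mark CCAAT or its reverse complement and, in Pck2, the reverse complement of TGATGNAA, each window running 5′ to 3′ on the gene's strand.
Pck2 (chr14:55540016-55540315, plus strand): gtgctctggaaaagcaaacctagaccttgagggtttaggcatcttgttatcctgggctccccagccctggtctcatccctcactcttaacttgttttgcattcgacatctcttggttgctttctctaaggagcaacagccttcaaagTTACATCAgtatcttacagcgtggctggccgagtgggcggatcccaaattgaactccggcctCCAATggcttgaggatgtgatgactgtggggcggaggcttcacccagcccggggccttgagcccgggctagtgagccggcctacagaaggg
Phgdh (chr3:98339920-98340219, minus strand): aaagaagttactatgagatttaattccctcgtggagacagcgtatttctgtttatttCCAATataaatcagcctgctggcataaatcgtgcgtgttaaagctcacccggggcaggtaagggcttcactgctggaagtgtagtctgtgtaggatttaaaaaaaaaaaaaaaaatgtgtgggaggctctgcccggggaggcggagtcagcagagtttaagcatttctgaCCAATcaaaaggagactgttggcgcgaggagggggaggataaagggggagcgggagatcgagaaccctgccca
Psat1 (chr19:15925010-15925309, minus strand): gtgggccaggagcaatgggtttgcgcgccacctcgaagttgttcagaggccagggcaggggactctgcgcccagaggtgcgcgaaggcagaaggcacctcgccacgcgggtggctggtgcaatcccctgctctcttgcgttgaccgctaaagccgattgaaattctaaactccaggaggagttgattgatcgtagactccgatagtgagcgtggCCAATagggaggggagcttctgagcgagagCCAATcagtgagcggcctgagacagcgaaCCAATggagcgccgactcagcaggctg
Mthfd2 (chr6:83317555-83317854, minus strand): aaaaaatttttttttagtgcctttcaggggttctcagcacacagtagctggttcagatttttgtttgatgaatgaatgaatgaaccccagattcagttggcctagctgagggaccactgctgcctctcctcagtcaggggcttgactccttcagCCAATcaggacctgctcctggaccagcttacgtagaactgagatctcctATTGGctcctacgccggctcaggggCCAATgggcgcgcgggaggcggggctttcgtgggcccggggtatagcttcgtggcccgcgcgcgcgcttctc
Mthfd1 (chr12:76254982-76255281, plus strand): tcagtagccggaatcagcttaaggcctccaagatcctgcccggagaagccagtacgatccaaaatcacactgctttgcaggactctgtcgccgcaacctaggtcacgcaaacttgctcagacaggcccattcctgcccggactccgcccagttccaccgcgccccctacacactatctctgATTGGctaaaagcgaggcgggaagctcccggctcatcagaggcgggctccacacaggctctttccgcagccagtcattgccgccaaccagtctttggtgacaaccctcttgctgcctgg

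Around these enzymes, 37 further genes of serine, glycine and folate metabolism were listed, of which 33 passed the filter. Only Atic was higher and 3 were lower (Aldh1l1, Mat2b and Srr), which is 3.03% and 9.09% of the 33, beside 4.15% of all tested genes called higher and 6.74% called lower. Their median log2 fold change was -0.01.

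Of 6 tested enzymes that interconvert folates, Aldh1l1 fell. It is the cytosolic counterpart of Aldh1l2 and is widely used as an astrocyte marker. Aldh1l1 had 104.2, 106.3 and 104.3 TPM in KO and 126.0, 121.5 and 116.1 TPM in WT, without overlap (log2 fold change -0.21 ± 0.03 SE, limma adjusted p = 0.008), and it was past the threshold in all 6 fits that left out 1 library. The Aldh1l2 to Aldh1l1 ratio was accordingly 0.2056 ± 0.0239 in KO and 0.1199 ± 0.00921 in WT (SD, n = 3 each). Mthfd2l, the close relative of Mthfd2 in mitochondria, did not pass (7.995 ± 0.599 TPM in KO and 7.60 ± 1.03 TPM in WT, adjusted p = 0.72). Mthfs, which returns a folate storage form to the active pool, did not pass either and had 3.42 ± 0.493 TPM in KO and 2.54 ± 0.343 TPM in WT (adjusted p = 0.15).

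Among 8 genes that use folate units or run the methionine cycle, Atic rose and Mat2b fell. Atic, which spends a formyl group in the last steps of purine synthesis, had 40.3 ± 2.27 TPM in KO and 33.7 ± 1.82 TPM in WT (log2 fold change 0.25 ± 0.06 SE, limma adjusted p = 0.027). Its call held without KO replicate 3 or WT replicate 2 and was lost without any other single library (adjusted p up to 0.0864). Mat2b, the regulatory subunit of methionine adenosyltransferase, had 52.4 ± 2.04 TPM in KO and 58.8 ± 0.839 TPM in WT (log2 fold change -0.17 ± 0.04 SE, adjusted p = 0.026), a call that held without KO replicate 3 only (adjusted p up to 0.0872). Gart, which uses formyl groups in purine synthesis before Atic, had 96.5% of the WT level in KO (adjusted p = 0.60), and the thymidylate synthase gene Tyms 94.2% (adjusted p = 0.69).

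Of 7 tested genes for folate uptake, retention and reduction, none passed with limma or with limma voom on recovered counts, and none had an unadjusted p under 0.05. The smallest p values were those of Ggh, the hydrolase that trims folate polyglutamates, at 31.5 ± 1.34 TPM in KO and 28.9 ± 1.74 TPM in WT (adjusted p = 0.20), and Slc46a1, a proton-coupled folate carrier, at 8.88 ± 1.16 TPM in KO and 7.96 ± 0.430 TPM in WT (adjusted p = 0.42). None of the 4 genes of the glycine cleavage system passed with limma, 1 having an unadjusted p under 0.05, and 1 passed with voom. This was Gldc, the decarboxylase subunit, with 38.5 ± 1.27 TPM in KO and 35.0 ± 0.988 TPM in WT (adjusted p = 0.074), whereas Gcsh, the lipoate-carrying subunit and the one with the next smallest p, had 87.3 ± 2.79 TPM in KO and 89.1 ± 1.80 TPM in WT (adjusted p = 0.64).

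Of 8 tested genes for serine import into mitochondria and for serine-using enzymes, Srr fell. Srr, the racemase that makes D-serine, had 115.5 ± 1.62 TPM in KO and 125.7 ± 0.835 TPM in WT (log2 fold change -0.12 ± 0.02 SE, limma adjusted p = 0.018). The call was lost without KO replicate 2, KO replicate 3 or WT replicate 1 (adjusted p up to 0.0688). Sfxn1, a serine carrier of the inner mitochondrial membrane, had 124.7 ± 2.23 TPM in KO and 113.2 ± 5.57 TPM in WT, without overlap, and missed the threshold (adjusted p = 0.058).

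The list for the integrated stress response was chosen with earlier results of these data known, so nothing is read from its counts. Of 12 genes, 8 were called higher in KO, none lower and 4 neither. Of all tested genes 4.15% were called higher and 6.74% lower. The median log2 fold change of the 12 was 0.27. Atf4 itself had 234.0 ± 8.98 TPM in KO and 196.0 ± 7.55 TPM in WT (log2 fold change 0.25 ± 0.04 SE, limma adjusted p = 0.0054). Atf5 and Chac1 rose 1.64-fold and 1.71-fold, Ddit3, Ddit4 and Slc7a11 by between 1.17-fold and 1.28-fold, and Trib3 and Atf3, at low levels, 2.04-fold and 2.84-fold. Calls were lost for Ddit3 without KO replicate 1, KO replicate 2 or WT replicate 2, for Trib3 without KO replicate 2, KO replicate 3 or WT replicate 1, and for Atf3 without KO replicate 2 or 3 (adjusted p between 0.0506 and 0.0589). Asns, the asparagine synthetase gene that ATF4 is known to activate, had 194.9 ± 3.24 TPM in KO and 182.0 ± 8.70 TPM in WT and did not pass (adjusted p = 0.13).

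**Figure D4:**
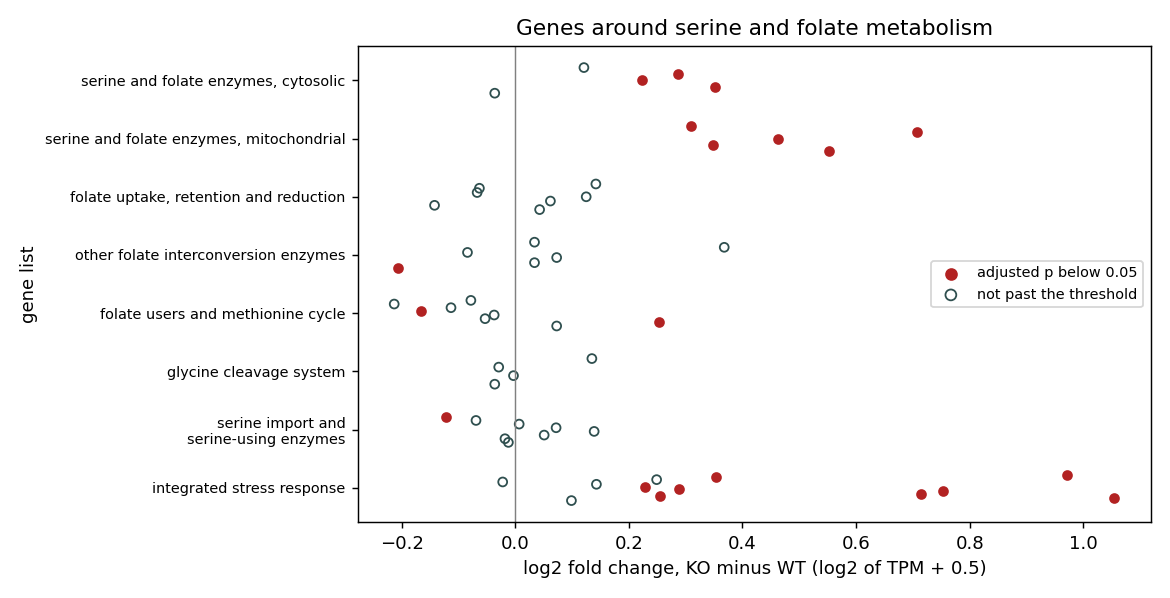
Log2 fold change, KO minus WT, of every tested gene of the listed groups (horizontal axis; 1 point per gene, rows are lists, filled points passed an adjusted p below 0.05 over all tested genes). Points of the mitochondrial enzymes all lie right of 0, while 29 of the 33 other serine, glycine and folate genes are unfilled.

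In bulk RNA, a change in the number of cells of a type and a change of RNA per cell cannot be told apart. Neuronal markers were abundant, with a summed level of 8 genes of 6630 to 6725 TPM in KO and 6348 to 6383 TPM in WT. Of the 8, Tubb3 and Nefm rose 1.119-fold and 1.126-fold and Rbfox3 fell to 87.0% of WT. Of all tested genes 4.15% were called higher and 6.74% lower. In 4 of the 8 all KO libraries lay above all WT libraries and in 1 below, beside 12.5% and 19.2% of all tested genes. Voom called 5 of the 8 higher and 1 lower. The cultures also held glial RNA. The 12 markers of astrocytes and radial glia summed to 6404 to 6588 TPM in KO and 5834 to 6107 TPM in WT, none was at 0, and 4 rose (Aldoc 1.39-fold, Slc1a3 1.12-fold, Fabp7 1.09-fold and Glul 1.08-fold) while Vim fell to 72.2% of WT, beside 4.15% of all tested genes called higher and 6.74% called lower. The list was split: 4 genes had all KO libraries above all WT libraries and 5 had them below. Of all tested genes, 12.5% lay above and 19.2% below in this way. Voom called 4 of the list higher and 4 lower. The higher sum includes Aldoc at 965.5 TPM in KO and 693.7 TPM in WT, and Fabp7 at 2743 TPM in KO and 2509 TPM in WT. Apart from Vim, the genes with KO below WT were Gfap at 75.6% of WT, S100b at 85.5%, Aqp4 at 88.2% and Gja1 at 91.9%, none of which passed (limma adjusted p = 0.070, 0.11, 0.052 and 0.080). Phgdh is known to be enriched in astroglia, and the part of these cells in its difference was not tested.

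Markers of dividing cells, in which mitochondrial folate enzymes are usually high, summed to 285.6 to 305.6 TPM in KO and 308.1 to 313.3 TPM in WT. None of the 10 passed with limma or voom, and 2 had an unadjusted p under 0.05. Their median log2 fold change was -0.096. In 4 of them all KO libraries lay below all WT libraries, beside 19.2% of all tested genes, and in none above. Of 6 fibroblast markers 3 rose (Lum 3.67-fold, Col1a1 2.13-fold and Dcn 1.24-fold), beside 4.15% of all tested genes. Lum and Col1a1 were at low levels. Lum had 3.45 TPM in KO and 0.941 TPM in WT (14 counts per WT library), and Col1a1 had 5.31 and 2.49 TPM. In 5 of the 6 all KO libraries lay above all WT libraries, beside 12.5% of all tested genes, and voom called 5 higher. Col3a1 at 1.76 times and Col1a2 at 1.57 times the WT level did not pass with limma (adjusted p = 0.054 and 0.062). The list had sums of 196.1 to 209.2 TPM in KO and 179.8 to 188.2 TPM in WT, of which Pdgfra, also an oligodendrocyte precursor marker, made up 150.8 TPM in KO and 148.2 TPM in WT. Of 7 tested oligodendrocyte lineage markers 2 fell, among them Cspg4 to 87.3% of WT, beside 6.74% of all tested genes called lower. The sums of that list, 653.2 to 679.9 TPM in KO and 650.6 to 688.8 TPM in WT, overlapped. Of 5 tested endothelial and mural markers only Kdr fell, to 60.9% of WT, beside 6.74% of all tested genes called lower. Sums of these markers were 18.2 to 19.3 TPM in KO and 20.2 to 21.8 TPM in WT. Kdr alone had 5.62 TPM in KO and 9.21 TPM in WT. Pdgfrb went the other way, at 7.22 TPM in KO and 6.40 TPM in WT, with overlapping groups. The endothelial genes Cldn5, Flt1 and Tek were too low to be tested. Defining microglial genes were near 0, with Cx3cr1 at a mean of 0.0742 TPM in KO and 0.109 TPM in WT. Of that list 2 genes could be tested, and none passed with limma or voom or had an unadjusted p under 0.05. The part of any of these cells in the enzyme levels was not tested.

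Over the 6 libraries, the profile most like that of Phgdh among 10165 other genes averaging 10 TPM or more was that of Fads2, a fatty acid desaturase gene, with a Pearson correlation of log2 values of 0.9997. Ybx1, Bend5, Fasn and Tbc1d5 followed at 0.998, 0.998, 0.997 and 0.996. With 6 libraries in 2 groups such values mainly follow the group difference, and the genes share libraries and scaling. Fads2 had 881.7, 884.4 and 903.7 TPM in KO and 798.7, 775.0 and 758.4 TPM in WT, the same order of libraries as Phgdh.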

How the data were processed

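mRNA-seq values of 3 KO and 3 WT libraries were compared. The values deposited by the authors are TPM, since every column adds up to 1000000, although the table is named for FPKM. Build mm10 (GRCm38) and edgeR, featureCounts, TopHat, Picard 1.127, bcl2fastq 2.17 and FastQC 0.11.2 are listed, per the submitters' processing notes, without role or order. The sources used here do not give the annotation, strand setting or scaling, so reads of genes overlapping on opposite strands may not have been told apart.

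Genes and lists were chosen with earlier results of these data known. Entries with a mean of at least 0.5 TPM (14983 of 20040) were fitted by limma 3.58.1 in R 4.3.3 on log2 of TPM plus 0.5, with variances moderated along a mean trend and no covariates, and Benjamini-Hochberg adjustment covered all of them. The design had been written for a generic normalized unit and held for TPM. Fold changes on this scale understate those of low genes. Ratios in the text are ratios of group means. All enzyme genes are named; of each other list the genes that passed, or otherwise the 2 with the smallest p, are given. The gene lists covered folate uptake, folate interconversion, folate users with the methionine cycle, glycine cleavage, serine import and use, and the integrated stress response, beside markers of 7 cell types.

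Multiplied by a whole-number length, each entry's values were whole multiples of a step fixed for its library, which loci under 200 nt supplied. Counts were taken as the smallest that fit all 6 libraries, within 1e-05 counts plus 1e-08 of the value, for 19369 of 19369 entries above 0, so totals are lower bounds. They gave the depth and 1 alternative test, limma voom. Alternatives changed the pseudocount, filter, scaling, variance model, test, replicate block and libraries. The procedure was tested on simulated data. The symbol Ftcd was not found in the table, and 27 names turned into dates were not used by name. Values of some listed genes are not reported here.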

Additional observations from a re-analysis of the deposited data

How the results depend on the processing

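Every enzyme gene kept its direction in all 16 alternative fits, and the median log2 fold changes stayed between 0.205 and 0.250 for the cytosolic and between 0.416 and 0.514 for the mitochondrial genes. Between 5 and 8 of the 10 genes were past the threshold, which is again a description, since the genes were selected on this contrast. Over all genes 622 were higher and 1010 lower; dropping the variance trend gave 406 and 658, limma voom on recovered counts 1183 and 1432, leaving out 1 library 355 to 454 and 531 to 698, and median centring 867 and 767, which moved the share of calls that were higher from 38.1% to 53.1% (49.2% after quantile normalization). Of the other serine, glycine and folate genes 1 was higher and 3 lower. The higher count was 2 with a filter at 2 TPM or a robust trend (Sfxn1 joined Atic), 3 after median centring, quantile normalization or with voom (Gldc and Sfxn1 joined), and 0 without the variance trend (Atic had adjusted p = 0.0739, range over all alternatives 0.000577 to 0.0864), and 0 to 1 when 1 library was left out. The lower count was 1, Aldh1l1, without the variance trend, and 1 to 2 when 1 library was left out. The causes were not tested. With the replicate number as a block, 360 genes were higher and 585 lower. Of the other pathway genes 1 was higher and 1 lower in that fit. Same-numbered libraries did not deviate together (correlations 0.00775, -0.0511 and 0.011 across genes). Whether they were prepared together is not stated in the labels, and these correlations cannot settle it. Shmt1, with 49 to 62 counts per library, is the enzyme gene of the 10 for which depth limits precision most. Atf3 (8 to 34 counts), Mthfs (12 to 22 counts) and, in WT, Lum (14 counts) rest on fewer.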
